A study of Rattus norvegicus with 10 samples.

Results

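The genes described here encode the complement proteins and the coagulation and fibrinolysis factors of the plasma, most of which are made by the hepatocyte. The list held 36 genes, 20 of complement and 16 of coagulation, and 29 of them (17 and 12) had at least 1 probe set paired with that gene alone, out of 14217 genes measured in this way. Where a gene had several such probe sets, the one with the highest mean over the 10 arrays stood for it. C2 and Cfb had only probe sets that they share, C4a and Kng1 only a probe set shared with related genes, and F7, F11 and F13b had no probe set paired with them. The members were chosen by name, with earlier results of these data known.

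Hepatic RNA was measured on Affymetrix rat genome arrays, 1 per rat, in 10 male Sprague-Dawley rats aged 5 weeks by label. By the methods the rats were younger than this when the diet began. The iron-deficient group (n = 5) had free access to a diet with about 3 ppm iron for 3 days, and the pair-fed group (n = 5) was given the control diet with 48 ppm iron in matched amounts. Both groups had been trained to daytime feeding, and the livers were excised 1.5 h after feeding on day 3. The source field of the control samples names the iron-deficient diet, so these samples were taken as controls by their titles and their treatment field. The question for these genes was whether the short iron deficiency was accompanied by a change in the hepatic mRNAs of the complement and coagulation systems.

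Complement and coagulation are cascades of serine proteases that circulate as inactive precursors. Complement is triggered through the classical, lectin or alternative pathway, converges on the cleavage of C3 and ends in the pore-forming membrane attack complex. Coagulation is triggered by tissue factor or by the contact system and ends in thrombin, which turns fibrinogen into fibrin, while plasmin dissolves the clot. The hepatocyte transcription factors HNF1, HNF4, FOXA and C/EBP act on many of these genes, and STAT3 carries the interleukin-6 signal of the acute phase response.

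The sequences around the start sites of C1r, C8b, Plg and F9 are shown because these were the members of complement and of coagulation with the largest differences towards the iron-deficient group that have such a window. Each window runs from 250 bases before to 50 bases after the start site in the RefSeq annotation of GRCr8 and is written in the direction of transcription. The windows are chr4:159098763-159099062 on the plus strand for C1r, chr5:124763864-124764163 on the plus strand for C8b, chr1:50915357-50915656 on the minus strand for Plg and chrX:143388392-143388691 on the plus strand for F9. Capitals mark matches to the motifs named after them, on either strand.
C1r: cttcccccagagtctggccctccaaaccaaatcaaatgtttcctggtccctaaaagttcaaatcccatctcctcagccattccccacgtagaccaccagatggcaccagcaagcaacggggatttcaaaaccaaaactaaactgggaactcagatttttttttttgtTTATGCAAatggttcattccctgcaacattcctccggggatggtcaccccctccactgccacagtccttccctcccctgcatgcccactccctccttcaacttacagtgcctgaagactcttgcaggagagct
C8b: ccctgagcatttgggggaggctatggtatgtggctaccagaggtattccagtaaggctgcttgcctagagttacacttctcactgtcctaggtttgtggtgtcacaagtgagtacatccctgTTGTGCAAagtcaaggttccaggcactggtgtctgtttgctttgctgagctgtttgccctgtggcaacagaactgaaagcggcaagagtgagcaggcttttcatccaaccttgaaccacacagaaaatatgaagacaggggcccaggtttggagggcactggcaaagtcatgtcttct
Plg: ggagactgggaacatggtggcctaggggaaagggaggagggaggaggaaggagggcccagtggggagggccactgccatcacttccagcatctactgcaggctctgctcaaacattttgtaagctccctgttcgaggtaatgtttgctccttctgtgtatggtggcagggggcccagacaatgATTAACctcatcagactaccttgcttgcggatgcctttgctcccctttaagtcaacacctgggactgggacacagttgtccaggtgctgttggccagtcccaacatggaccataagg
F9: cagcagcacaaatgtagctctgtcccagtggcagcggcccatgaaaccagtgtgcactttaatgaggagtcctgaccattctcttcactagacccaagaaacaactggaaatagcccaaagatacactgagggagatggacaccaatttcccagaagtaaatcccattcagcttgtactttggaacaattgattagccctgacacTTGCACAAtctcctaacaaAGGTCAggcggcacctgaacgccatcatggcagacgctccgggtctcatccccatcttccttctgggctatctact

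Letter matches were sought on both strands for GTTAAT (HNF1 half-site), AGGTCA (HNF4 half-site), TGTTTAC (FOXA), TTGCNNAA (C/EBP) and TTCCNGGAA (STAT3). No matches overlapped in the windows of the members. An HNF1 or HNF4 match below is a match to the half-site only, not to a full site. Positions are those of the leftmost base, with the start site as 0. C1r held a C/EBP match at -83 and C8b one at -128. Plg held an HNF1 match at -67, and F9 held a C/EBP match at -45 and an HNF4 match at -26. Windows were found for 28 of the 36 members, 23 of them measured, and not for C1s, C2, C8g, C9, Cfb, Masp2, F3 and Cpb2. The HNF4 letters lay in 12 of the 28 windows (42.9%), against 15.7% of the windows of all 27457 genes. The C/EBP letters lay in 9 (32.1% against 10.5%), the HNF1 letters in 8 (28.6% against 7.37%) and the FOXA letters in 5 (17.9% against 3.76%). The STAT3 letters lay in 1 window, that of Pros1 (3.57% against 1.23%). A match describes these letters and is not a measured binding site.

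**Figure D1:**
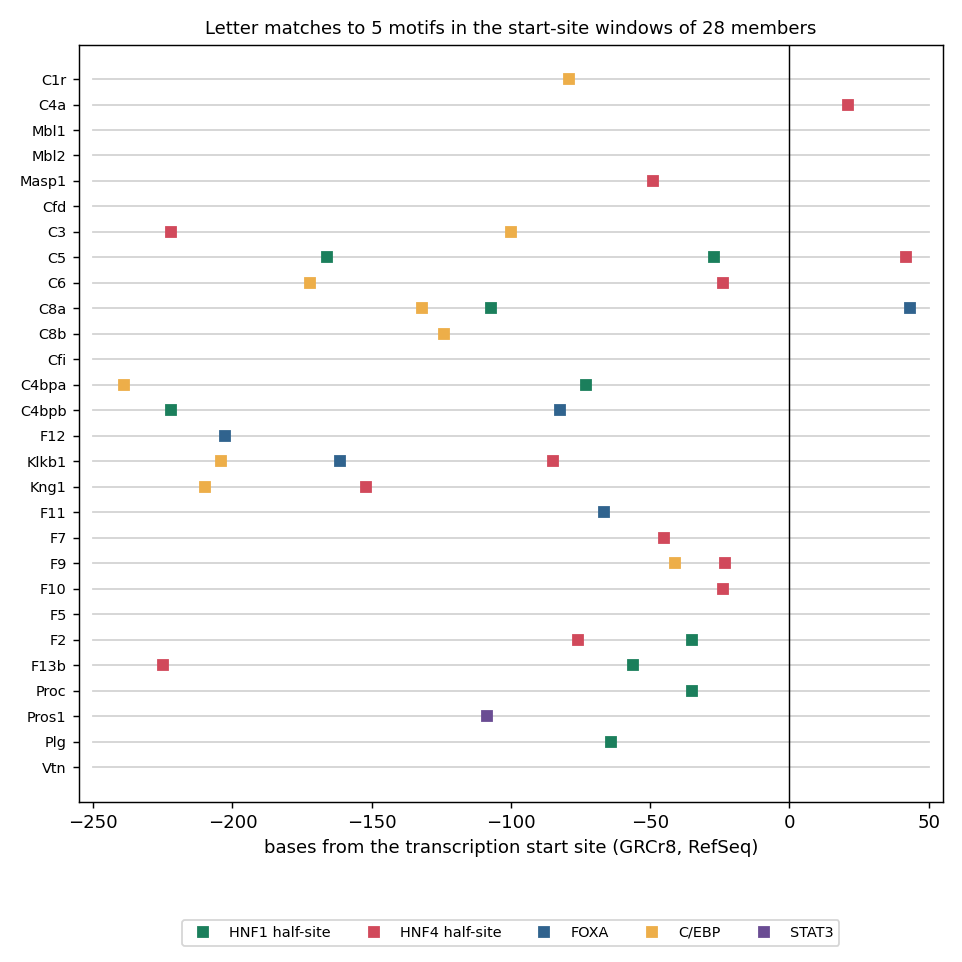
Positions of letter matches to the HNF1 and HNF4 half-sites and the FOXA, C/EBP and STAT3 motifs in the windows of 28 members. The horizontal axis is the distance in bases from the start site, each row is a gene and each square the centre of a match; HNF4 matches occur in 12 rows and the STAT3 match in 1.

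None of the 29 members was called up-regulated or down-regulated in the iron-deficient group. At the low shares of all probe sets called, 0 calls are unremarkable in a list of 29 genes. By rank products, the method of the study, 0 of 17 complement and 0 of 12 coagulation members passed a false discovery rate of 0.05 in either direction, where 0.303% of all 31042 probe sets passed as up-regulated and 0.561% as down-regulated. Of the 14217 genes, each with 1 probe set chosen as for the members, 46 passed as up-regulated and 106 as down-regulated. The lowest false discovery rate of a member was 0.955 for higher and 1.00 for lower values. limma, which weighs the spread between rats, gave 0 members at a Benjamini-Hochberg adjusted p under 0.05 (lowest 0.696) and also 0 probe sets of the whole array (lowest 0.397). At an unadjusted limma p under 0.05, 2 of 29 members were higher, C1r and Plg. In either direction 6.98% of all probe sets and 1116 of the 14217 genes passed. In 0 of 29 members were the groups free of overlap, against 1.29% of all probe sets and 231 of the 14217 genes.

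The intervals of the differences were narrow. The 95% interval of the log2 fold change (iron-deficient minus pair-fed) lay within 0.5 of zero for all 29 members, against 93.2% of all genes. Over the members the intervals reached from -0.34 to 0.31, that is from 0.791-fold to 1.24-fold. The fold changes were higher in 17 and lower in 12 members, of which C4bpa changed sign when the arrays were centred on their medians. The median log2 fold change was 0.0026 in complement (9 higher, 8 lower) and 0.011 in coagulation (8 higher, 4 lower), beside -0.0059 over all genes. The median size without sign was 0.044 over the members and 0.069 over all genes. The difference between the groups exceeded the larger of the group SDs in 4 of 29 members (C1r, C3, C8b and Plg), beside 15.2% of all genes. For 27 members the mean log2 value was above 10, where the highest value on any array was 15.36, and whether such bright probe sets compress differences was not tested.

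**Figure D2:**
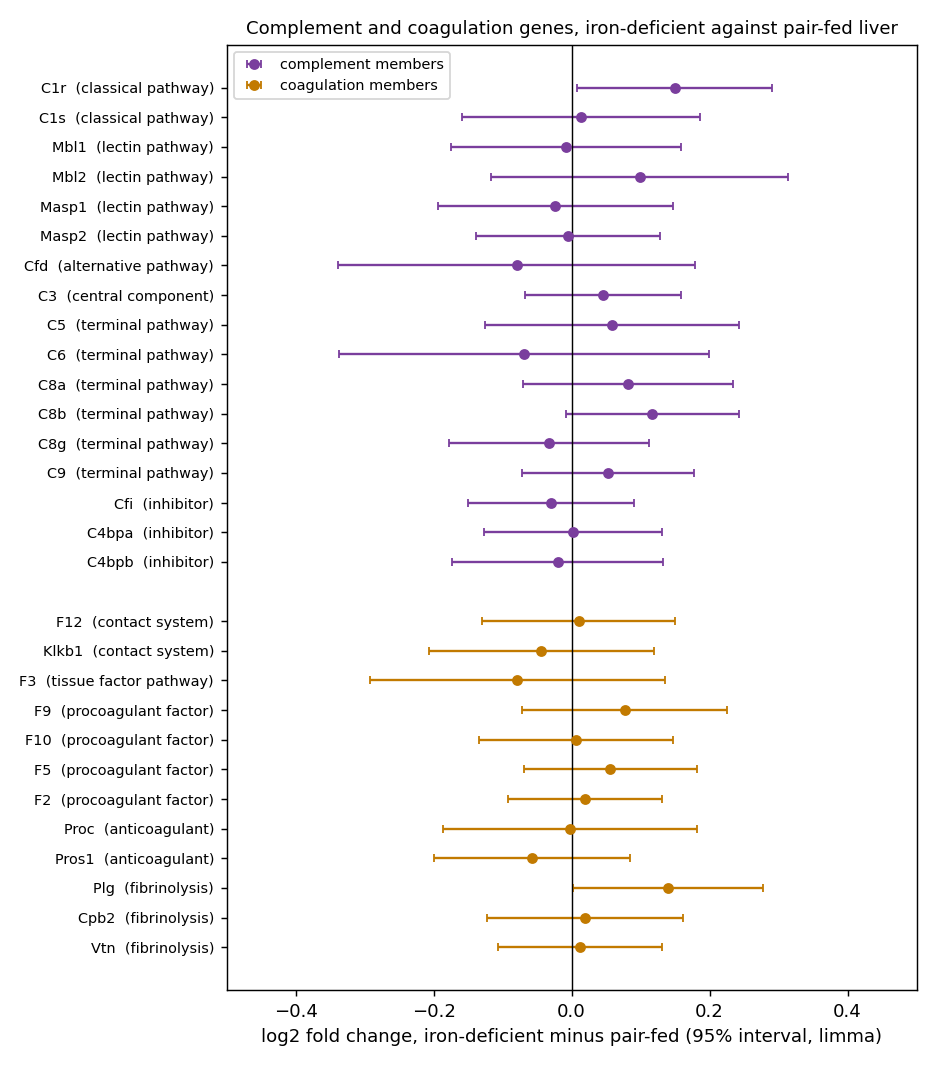
Log2 fold change of the 29 members, iron-deficient minus pair-fed, with 95% intervals from limma (n = 5 rats per group), ordered by role. All intervals lie between -0.34 and 0.31, and those of C1r and Plg do not cross zero before adjustment.

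The classical pathway is started by the proteases C1r and C1s, which sit in the C1 complex and cleave C4 and C2. C1r had the largest log2 fold change of the 29 measured members. Its log2 values were 12.12, 12.20, 12.20, 12.14 and 12.31 in iron-deficient rats 1 to 5 and 12.08, 12.14, 11.92, 11.98 and 12.10 in pair-fed rats 1 to 5. Every iron-deficient rat was above the pair-fed median, and the groups overlapped only where pair-fed rat 2 lay above iron-deficient rats 1 and 4. The log2 fold change was 0.15 (SE 0.065; 95% interval 0.0080 to 0.29; limma p = 0.040, adjusted p = 0.696), and the exact permutation test, 2-sided, of C1r alone gave p = 0.024. Its unadjusted limma p was under 0.05 in 5 of the 10 fits that left out 1 rat, those without iron-deficient rat 1 or 4 or without pair-fed rat 1, 2 or 5, and above it in the other 5. C1s, its neighbour in the genome and partner in the complex, had a log2 fold change of 0.014 (SE 0.079).

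The lectin pathway begins with the mannose-binding lectins Mbl1 and Mbl2, which recognise microbial sugars and carry the proteases Masp1 and Masp2. Mbl2 was at 13.20, 13.13, 12.95, 13.14 and 13.50 in the iron-deficient rats and at 13.12, 12.98, 13.30, 12.96 and 13.07 in the pair-fed rats. The highest value belonged to iron-deficient rat 5 and the lowest to iron-deficient rat 3, so that the groups overlapped over most of their range. The log2 fold change of Mbl2 was 0.099 (SE 0.099; adjusted p = 0.869), and its further probe set gave 0.071. Without iron-deficient rat 5 the value was 0.020 and without iron-deficient rat 3 it was 0.16. Mbl1, at -0.0079 (SE 0.077), Masp1, at -0.024 (SE 0.079), and Masp2, at -0.0051 (SE 0.061), lay close to zero. The further probe sets gave -0.018 and -0.15 for Masp1 and -0.017 and -0.050 for Masp2, with 95% intervals that all crossed zero. Cfd, the factor D protease of the alternative pathway, was among the dimmer members, at 8.11 ± 0.22 (SD, n = 5) against 8.19 ± 0.21 (SD, n = 5), and its 95% interval ran from -0.34 to 0.18 around a log2 fold change of -0.080.

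C3, on which the pathways converge, varied least between the pair-fed rats. Its values were 14.80, 14.69, 14.70, 14.71 and 14.72 in the iron-deficient rats and 14.70, 14.68, 14.66, 14.68 and 14.68 in the pair-fed rats. Iron-deficient rat 1 stood above the rest, and the groups overlapped only because iron-deficient rat 2 lay just below pair-fed rat 1. The log2 fold change was 0.046 (SE 0.052; adjusted p = 0.887), where the exact permutation test, 2-sided, of C3 alone gave p = 0.016. Without iron-deficient rat 1 the log2 fold change of C3 was 0.027. Its values in every rat are given because its exact p was the lowest of the members, a choice made after its values had been seen.

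The terminal pathway assembles the membrane attack complex, to which the members C5, C6, C8 and C9 contribute, and C8 consists of the chains encoded by C8a, C8b and C8g. C8b was at 13.17, 13.17, 13.16, 12.99 and 13.17 in the iron-deficient rats and at 13.03, 13.03, 13.02, 12.97 and 13.03 in the pair-fed rats. Iron-deficient rats 1, 2, 3 and 5 lay above all pair-fed rats, and iron-deficient rat 4 lay within the pair-fed range. The log2 fold change of C8b was 0.12 (SE 0.058; 95% interval -0.0087 to 0.24; limma p = 0.065, adjusted p = 0.734), with p = 0.040 in the exact permutation test, 2-sided, of C8b alone. Without iron-deficient rat 4 it was 0.15, and its unadjusted limma p was then under 0.05.

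C8a, the neighbour of C8b in the genome, was at 12.86, 12.73, 12.73, 12.62 and 12.79 in the iron-deficient rats and at 12.78, 12.69, 12.67, 12.49 and 12.69 in the pair-fed rats. The lowest value of each group again belonged to rat 4, and the groups overlapped. Its log2 fold change was 0.081 (SE 0.070; adjusted p = 0.845), and it was 0.037 without pair-fed rat 4. C8g had -0.033 (SE 0.067). C5, whose cleavage starts the assembly, had 0.059 (SE 0.085), and without iron-deficient rat 1 it was -0.0098. C6 had -0.069 (SE 0.12) and C9, which forms the ring of the pore, 0.052 (SE 0.057). Of the 6 terminal members 4 were higher and 2 lower, and 0 passed.

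The inhibitors of complement lay near zero. Cfi, the factor I protease that cleaves C3b and C4b, had a log2 fold change of -0.030 (SE 0.055). C4bpa and C4bpb, the chains of its cofactor C4b-binding protein, had 0.0026 (SE 0.059) and -0.020 (SE 0.071). The 95% intervals of the 3 inhibitors lay between -0.17 and 0.13.

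**Figure D3:**
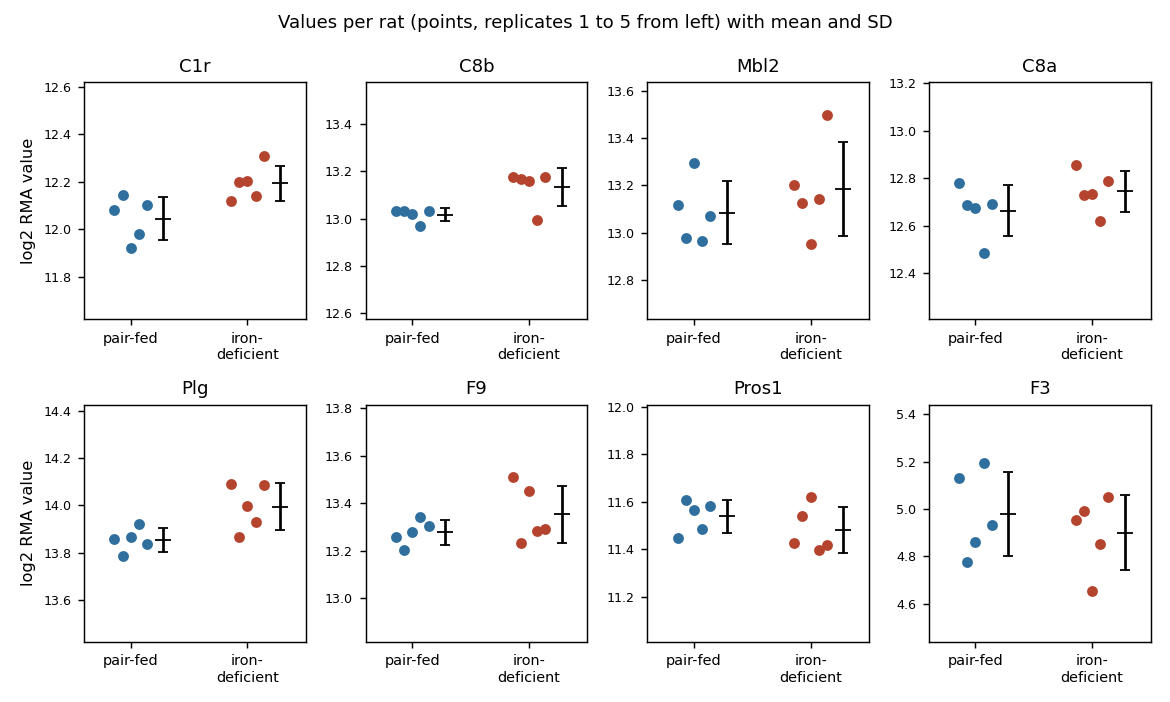
Log2 RMA values of C1r, C8b, Mbl2, C8a, Plg, F9, Pros1 and F3 in each rat; points are rats in the order of replicates 1 to 5, with the mean and SD (n = 5) beside each group. The panels have vertical axes of equal length that do not start at zero, and in all 8 the groups overlap.

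The tissue factor and contact arms of coagulation showed small differences. F3, which encodes tissue factor, the trigger of clotting after injury, was the only member with a mean under 6, at 4.94. It was at 4.95, 4.99, 4.65, 4.85 and 5.05 in the iron-deficient rats and at 5.13, 4.78, 4.86, 5.19 and 4.93 in the pair-fed rats. The groups overlapped, and the log2 fold change of -0.079 (SE 0.098; adjusted p = 0.904) is that of a dim probe set. It was -0.016 without iron-deficient rat 3 and -0.13 without pair-fed rat 2. F12, the protease that starts the contact system, had 0.010 (SE 0.064), and Klkb1, plasma prekallikrein, which F12 activates, had -0.044 (SE 0.075).

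The 4 measured members grouped here as procoagulant factors (F2, F5, F9 and F10) had a positive fold change, beside 6750 of 14217 genes, and 0 passed. F3 (-0.079), Klkb1 (-0.044) and F12 (0.010), which act in the start of clotting, were grouped apart. F9, the clotting factor lost in haemophilia B, was at 13.51, 13.23, 13.45, 13.28 and 13.29 in the iron-deficient rats and at 13.26, 13.20, 13.28, 13.34 and 13.30 in the pair-fed rats. Iron-deficient rats 1 and 3 lay above all pair-fed rats, and the others lay within their range. The log2 fold change of F9 was 0.077 (SE 0.068; adjusted p = 0.850), and 0.038 without iron-deficient rat 1. F5, the cofactor of the prothrombin-cleaving enzyme F10, had 0.056 (SE 0.058). F10 itself had 0.0061 (SE 0.065), with a range of -0.023 to 0.044 when 1 rat was left out. F2, prothrombin, was at 14.02 ± 0.033 (SD, n = 5) against 14.01 ± 0.022 (SD, n = 5), which gave 0.020 (SE 0.051).

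The anticoagulant members were protein C, encoded by Proc, which inactivates the cofactors of clotting, and its cofactor protein S, encoded by Pros1. Pros1 was at 11.43, 11.54, 11.62, 11.40 and 11.42 in the iron-deficient rats and at 11.45, 11.61, 11.57, 11.49 and 11.58 in the pair-fed rats. The highest value and the 3 lowest were all in iron-deficient rats, around the pair-fed range, and the log2 fold change was -0.057 (SE 0.065; adjusted p = 0.887), with -0.093 without iron-deficient rat 3 and -0.037 without iron-deficient rat 4. Proc had -0.0018 (SE 0.085), which became 0.076 without iron-deficient rat 1.

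Plg, which encodes plasminogen, the precursor of the clot-dissolving protease plasmin, had the largest fold change of the coagulation members. It was at 14.09, 13.87, 14.00, 13.93 and 14.09 in the iron-deficient rats and at 13.86, 13.79, 13.87, 13.92 and 13.84 in the pair-fed rats. Iron-deficient rats 1, 3, 4 and 5 lay above all pair-fed rats, and rat 2 lay among them. The log2 fold change was 0.14 (SE 0.063; 95% interval 0.0026 to 0.28; limma p = 0.046, adjusted p = 0.711), and the exact permutation test, 2-sided, of Plg alone gave p = 0.024. It was 0.12 to 0.17 in the fits without 1 rat, and its unadjusted limma p was under 0.05 in those without iron-deficient rat 2 or 4 or pair-fed rat 4. Cpb2, the carboxypeptidase that protects fibrin from plasmin, had 0.019 (SE 0.065). Vtn, the adhesive glycoprotein vitronectin, which stabilises the plasminogen activator inhibitor, had 0.012 (SE 0.055).

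Probe sets that members share with other genes gave further values but could not be assigned to 1 gene. C2 and Cfb, neighbours in the genome that encode the proteases of the classical and alternative C3 convertases, share 4 probe sets. Of these, 3 had log2 fold changes of 0.20 (SE 0.074; exact permutation test, 2-sided, p = 0.032), 0.19 (SE 0.071; exact p = 0.024) and 0.16 (SE 0.074; exact p = 0.040). In these 3, all 5 iron-deficient rats lay above the pair-fed median. The unadjusted limma p-values of these 3 probe sets, in the same order, were 0.021, 0.018 and 0.051. All 3 fold changes were larger than the 0.15 of C1r. The brightest, at a mean of 13.52, had 0.022 (SE 0.058; exact p = 0.579), so the probe sets of this pair disagreed in size. All had adjusted p-values of 0.662 or more from limma, and 0 passed the rank products. The probe set of C4b and C4a, which carry the component cleaved by C1s, had -0.016 (SE 0.100), and that of the kininogens Kng1, Kng2 and Kng2l1, the cofactors of the contact system, had -0.034 (SE 0.062).

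Most coagulation members varied more between the rats of the iron-deficient group, as did most genes of some other lists. The SD was larger in the iron-deficient group in 11 of 12 coagulation members (91.7%) and in 11 of 17 complement members (64.7%), beside 65.3% of all genes. The median SD of the coagulation members was 0.11 in the iron-deficient and 0.051 in the pair-fed group, and that of the complement members 0.087 and 0.093. Of the 30 further coagulation and fibrinolysis genes measured, 15 had the larger SD in the iron-deficient group, with median SDs of 0.12 and 0.13. The SD was larger in that group for 7 of 8 hepatocyte markers and 7 of 8 genes of the vitamin K cycle and secretion. The counts were 10 of 15 for acute phase genes and 1 of 6 for red cell markers. The ratio of the SDs was 6.59 for F10, 4.18 for Cpb2 and 3.21 for F5, and the highest of complement were 2.91 for C8b and 2.86 for C3. The SD of F10 between pair-fed rats was 0.017, against 0.11 between iron-deficient rats. Without iron-deficient rat 1, a setting added after seeing the data, 10 coagulation members (83.3%) and 7 complement members (41.2%) had the larger SD in the iron-deficient group, beside 56.1% of all genes. These are counts without a test.

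**Figure D4:**
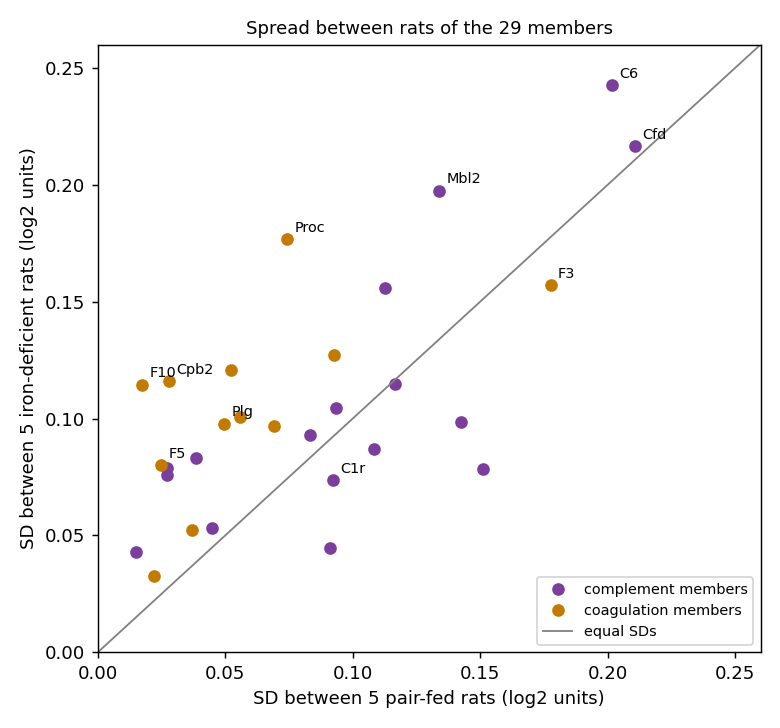
SD between the 5 iron-deficient rats against the SD between the 5 pair-fed rats, in log2 units, for the 29 members; the line marks equal SDs. Of the 12 coagulation members 11 lie above the line, with F10 and Cpb2 farthest from it in ratio, and of the 17 complement members 11.

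Iron-deficient rat 1 stood out in this spread. It held the highest value of the 10 rats in 7 members and the lowest in 8. It was the highest for C3 and C5 and the lowest of its group for Proc, at 12.74 where the other iron-deficient rats were between 13.08 and 13.17. Without it the SD of the iron-deficient group fell from 0.18 to 0.037 in Proc, from 0.16 to 0.036 in C5 and from 0.043 to 0.013 in C3. The same array had the highest 3' minus 5' log2 difference of the control probe sets, a measure of RNA quality whose part in these values was not tested. It was 0.36 for GAPDH, where the pair-fed rats had -0.052 to 0.094, and 1.74 for beta-actin, where they had 1.08 to 1.33. The group means of this measure differed by 0.084 for GAPDH (exact permutation test, 2-sided, p = 0.341) and 0.15 for beta-actin (exact p = 0.230). Averaged over the 17 complement members, the log2 distance from the pair-fed mean was 0.091 in iron-deficient rat 5, -0.057 in iron-deficient rat 4 and -0.075 in pair-fed rat 4.

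**Figure D5:**
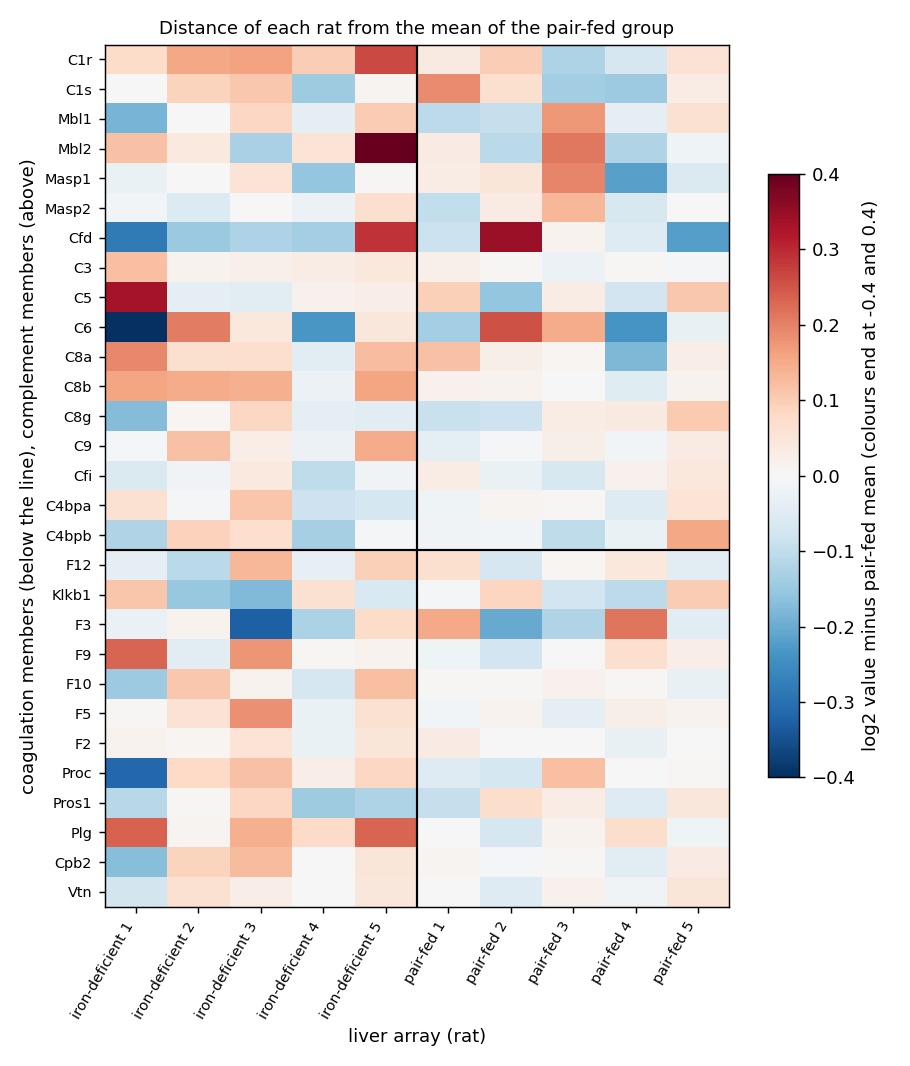
Log2 value of each member in each rat minus the pair-fed mean of that member; complement members are above the horizontal line, coagulation members below it, and the vertical line parts the groups. Iron-deficient rat 1 holds strong colours of both signs, with C5 high and C6 and Proc low.

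Once the group means were removed, the median correlation over the 406 pairs of members was 0.14 in the 10 rats, beside 0.0034 over all pairs of genes. Of the pairs of members 22 (5.42%) lay above 0.7 and 7 (1.72%) below -0.7, beside 2.5% and 2.32% of all pairs of genes. Without iron-deficient rat 1 the median was 0.20, beside 0.0050 over all pairs, and 23 pairs of members (5.67%) lay above 0.7 and 2 (0.493%) below -0.7, beside 3.01% and 2.83%. Genes of 1 array share its RNA and its normalization. The neighbouring genes C8a and C8b had r = 0.73 (0.71 without iron-deficient rat 1), and C1r and C1s had r = 0.63 (0.66). C9 and F10 had r = 0.83 (0.86), and the inhibitor Cfi had r = 0.82 with F5 (0.81) and with C4bpb (0.81). Proc followed Mbl1 with r = 0.86 (0.92). The strongest pair of opposite sign, C3 and Proc, had r = -0.95, and -0.71 without iron-deficient rat 1. C3 and C5 fell from r = 0.76 to 0.15 without that rat, and Proc and Cpb2 from 0.87 to 0.34. These correlations describe n = 10 arrays.

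Among the other complement, coagulation and fibrinolysis genes measured, only A2m passed the rank products. Of 25 further complement genes 19 were measured, 14 lower and 5 higher with a median of -0.059, and 0 passed. Clu, clusterin, which binds the terminal complex, was at 12.96 ± 0.14 (SD, n = 5) against 13.20 ± 0.049 (SD, n = 5), with every iron-deficient rat below every pair-fed rat. Its log2 fold change was -0.24 (SE 0.072; limma p = 0.0055, adjusted p = 0.601), and the exact permutation test, 2-sided, gave p = 0.0079, the smallest that 5 against 5 allow. Of these 19 genes, 1 had groups that did not overlap, beside 231 of all 14217 genes. C1qb, a chain of the recognition protein of the classical pathway, had -0.20 (SE 0.13), and Fcna, a ficolin of the lectin pathway, -0.18 (SE 0.10).

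Of 34 further coagulation and fibrinolysis genes 30 were measured, 19 higher and 11 lower with a median of 0.012. A2m, the protease inhibitor alpha-2-macroglobulin, passed the rank products as down-regulated (false discovery rate 0.034). It was at 10.58 ± 0.23 (SD, n = 5) against 11.02 ± 0.57 (SD, n = 5), a difference of -0.45 on the log2 scale (SE 0.23; limma adjusted p = 0.736). Procr, the protein C receptor, had 0.40 (SE 0.21) and F8, the cofactor of F9, 0.31 (SE 0.14), and neither passed. The fibrinogen chains, added after their values had been seen, had 0.030 (SE 0.055) for Fga, -0.029 (SE 0.056) for Fgb and 0.0020 (SE 0.051) for Fgg.

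All 8 genes of the vitamin K cycle and of the secretion of clotting factors were measured, 6 higher and 2 lower with a median of 0.12, and 0 passed. Vkorc1, the warfarin-sensitive reductase that recycles vitamin K, had 0.21 (SE 0.094; limma adjusted p = 0.705). Furin, which removes propeptides, had 0.20 (SE 0.11), and Lman1, the cargo receptor of factors V and VIII, 0.13 (SE 0.11). Of 22 liver transcription factors and cytokine receptors 20 were measured, 15 higher with a median of 0.10, and 0 passed. Stat3 had 0.35 (SE 0.22), Foxa3 0.30 (SE 0.16) and Onecut1 0.29 (SE 0.53). Of 16 acute phase genes 15 were measured, 9 higher and 6 lower with a median of 0.023. A2m and Orm1, the acute phase protein orosomucoid, passed as down-regulated, Orm1 at 11.57 ± 0.58 (SD, n = 5) against 12.08 ± 0.44 (SD, n = 5), -0.51 (SE 0.26; false discovery rate 0.030). Lbp, which binds lipopolysaccharide, had -0.18 (SE 0.080). The groups overlapped in A2m, Orm1 and Lbp. Crp and Itih3, added after their values had been seen, were higher, at 0.16 (SE 0.058) and 0.052 (SE 0.050). With every iron-deficient rat above every pair-fed rat, Itih3 was the 1 of 15 acute phase genes without overlap, beside 231 of all 14217 genes. Its exact permutation test, 2-sided, gave p = 0.0079, and its limma adjusted p was 0.862.

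The samples carried hepatocyte markers at high signal, with albumin at a mean log2 value of 15.35. The 8 hepatocyte markers had a median log2 fold change of 0.012, a sum of log2 values of 108.7 to 109.3 in the iron-deficient and 108.7 to 109.6 in the pair-fed rats, and 0 passed. Their largest differences were -0.14 (SE 0.19) for Tat, 0.061 (SE 0.059) for Apoa1 and 0.061 (SE 0.051) for Ttr. With every iron-deficient rat above every pair-fed rat, Ttr was the 1 of these 8 markers without overlap, beside 231 of all 14217 genes. Its exact permutation test, 2-sided, gave p = 0.0079, and its limma adjusted p was 0.840. All 6 red cell markers measured of 7 were lower, with a median of -0.55 and sums of 32.6 to 36.3 against 34.6 to 40.1. Hemgn (-1.23, SE 0.25), Alas2 (-0.96, SE 0.23) and Slc4a1 (-0.74, SE 0.30) passed the rank products as down-regulated. In whole liver, fewer cells of a type and less RNA per cell cannot be told apart, and the part of red cell RNA in the members' values was not tested.

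For macrophages, 6 of 8 markers were measured, 1 higher and 5 lower, with a median of -0.098. Their sums of log2 values were 53.5 to 56.2 against 54.1 to 57.7. The largest differences were those of Cd68 (-0.23, SE 0.12), Clec4f (-0.20, SE 0.12) and Cd5l (-0.16, SE 0.21). Adgre1, the higher one, was at 0.050 (SE 0.12). For stellate cells and matrix, 6 of 6 were measured, 5 higher and 1 lower, with a median of 0.20. Their sums were 50.8 to 54.0 against 50.3 to 52.0. The largest differences were those of Col1a1 (0.46, SE 0.23), Col3a1 (0.31, SE 0.13) and Lrat (0.21, SE 0.13). Des, the lower one, was at -0.057 (SE 0.075). Endothelial markers (6 of 7) had a median of 0.062 with sums of 54.7 to 56.1 against 54.4 to 55.3, among them Stab2 (0.29), Kdr (0.12) and Pecam1 (0.076). The bile duct markers (4 of 5) had a median of -0.018, with Epcam at -0.25, Krt19 at 0.098 and Spp1 at -0.024. The platelet markers (5 of 6) had a median of 0.035, with Pf4 at 0.27, Gp5 at 0.088 and Itga2b at 0.035. The lymphocyte and neutrophil markers (5 of 7) had a median of -0.092, with S100a8 at -0.20, S100a9 at -0.18 and Nkg7 at 0.13. None of these cell markers outside the red cells passed the rank products.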

How the data were processed

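The deposited values are log2 signals of the robust multiarray average (RMA), computed by the authors over the 10 arrays, and RMA compresses differences of dim probe sets. Array medians were between 6.19 and 6.22, and no further normalization was applied. Without 57 control probe sets, 31042 remained for testing; 0 columns of other samples were left out. The platform annotation pairs 20826 probe sets with 1 gene.

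For the rank products, each iron-deficient array was set against each pair-fed array (25 pairs), and 100 permutations of the values within arrays, with 1 random seed, gave the false discovery rate, in Python 3.11.15 (numpy 2.4.6, pandas 2.3.3). The ranks do not weigh the spread between rats. limma 3.58.1 in R 4.3.3 gave fold changes, standard errors, 95% intervals and p-values, adjusted by Benjamini-Hochberg for all probe sets tested. Both were tested on simulated data. For single genes an exact permutation test (2-sided) over the 10 rats was added, which cannot give a p below 0.0079. Figures were drawn with matplotlib 3.10.9. The 5 arrays per group limit the precision.

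The 29 measured members are all named. Values in every rat are given for members past the rank products, with an unadjusted limma p under 0.05 or without overlap, and for the 4 with the largest change in complement and in coagulation. From each further list every gene past the rank products and the 3 with the largest change are named. Genes added after their values had been seen are marked as such. The lists cover other complement genes, other coagulation and fibrinolysis genes, the vitamin K cycle and secretion, transcription factors and cytokine receptors, acute phase proteins and markers of hepatocytes, macrophages, endothelium, stellate cells, bile duct, red cells, platelets and lymphocytes and neutrophils. The members and lists were chosen with earlier results of these data known. Alternatives were the limma test, the rank sum, a filter on probe sets with a mean under 6, centred arrays, array weights, the mean over the probe sets of a gene, a replicate block and leaving out each array. The control samples were assigned by title and treatment. Replicates are separate rats by label. Start site windows came from RefSeq (GRCr8), matched by gene symbol.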

Additional observations from a re-analysis of the deposited data

Results flagged for a closer look

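The 29 members, with 2 groups each, gave 58 groups of 5 values. In 6 of the 58 groups the highest or lowest rat stood apart from the others by Dixon's criterion. Chance alone gives this in about 1 in 20 independent groups. The members were measured on the same arrays, so these groups are not independent and their count cannot be judged against that rate. Iron-deficient rat 1 was the highest of its group for C3, at 14.80 (others 14.69 to 14.72), and for C5, at 11.90 (others 11.52 to 11.59), and the lowest for Proc, at 12.74 (others 13.08 to 13.17). For Cfd, iron-deficient rat 5 was at 8.48 and the others of its group at 7.91 to 8.07. For C8b the lowest rat stood apart in both groups, at 12.99 in iron-deficient rat 4 (others 13.16 to 13.17) and at 12.97 in pair-fed rat 4 (others 13.02 to 13.03).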

How the results depend on the processing

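No member of complement or coagulation was called up-regulated or down-regulated in any alternative run. F3 was not tested where probe sets with a mean under 6 were left out. Over all probe sets, 94 up-regulated and 174 down-regulated became 5 and 29 by rank sum, 56 and 111 without the dim probe sets, and 0 and 0 by limma's adjusted p, with or without array weights, where 2168 probe sets had an unadjusted limma p under 0.05. Leaving out 1 array gave 47 to 101 up-regulated probe sets (47, 53 and 56 without iron-deficient rats 2, 3 and 5) and 90 to 188 down-regulated ones (115 without iron-deficient rat 5, and 90, 113 and 99 without pair-fed rats 2, 3 and 5). The deviations of rats of the same number correlated at -0.044 to 0.092, and 1 of 5 iron-deficient rats correlated best with its own number. The labels do not say that rats of 1 number were fed as a pair, so this cannot show whether pair feeding left pairs in the data. With the replicate block 85 and 149 probe sets passed and 0 members, and neither C1r nor Plg had an unadjusted limma p under 0.05. Of these 2 members, C1r alone was under it on centred arrays and both with array weights; 0 to 3 members were under it without 1 array, with 0 without iron-deficient rat 3 or 5 or pair-fed rat 3, and 3 (with C8b) without iron-deficient rat 4. The lowest adjusted p of a member was 0.499 to 0.928 without 1 array. The median log2 fold change was -0.0036 to 0.035 in coagulation without 1 array (0.035 without iron-deficient rat 1) and -0.017 to 0.028 in complement, which was -0.0026 on centred arrays. Array weights turned the sign of Mbl1 (0.017), C4bpa (-0.0038) and Proc (0.038), and centring that of C4bpa (-0.0026). Leaving out 1 array kept the sign of 14 members, but their values moved: 0.12 to 0.17 for C1r, 0.020 to 0.16 for Mbl2, 0.027 to 0.053 for C3, 0.037 to 0.11 for C8a, 0.10 to 0.15 for C8b, 0.029 to 0.071 for C9, -0.047 to -0.012 for Cfi, -0.082 to -0.010 for Klkb1, -0.13 to -0.016 for F3, 0.038 to 0.11 for F9, 0.024 to 0.077 for F5, 0.011 to 0.031 for F2, -0.093 to -0.037 for Pros1 and 0.12 to 0.17 for Plg. For the other 15 the log2 fold change ranged from -0.022 to 0.061 for C1s, -0.035 to 0.037 for Mbl1, -0.078 to 0.025 for Masp1, -0.030 to 0.028 for Masp2, -0.17 to 0.0063 for Cfd, -0.0098 to 0.085 for C5, -0.14 to 0.014 for C6, -0.061 to 0.0023 for C8g, -0.024 to 0.024 for C4bpa, -0.049 to 0.018 for C4bpb, -0.020 to 0.040 for F12, -0.023 to 0.044 for F10, -0.031 to 0.076 for Proc, -0.0074 to 0.067 for Cpb2 and -0.00092 to 0.033 for Vtn. No change of a member's value without 1 array exceeded 0.092.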
